A study of Mus musculus with 8 samples.

Results

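The sodium pump (Na+/K+-ATPase) is built from a catalytic alpha subunit and a beta subunit, and the 3 beta subunit genes Atp1b1, Atp1b2 and Atp1b3 were examined here in mouse retina. They were taken by symbol from a table of 26824 genes in 8 libraries, each symbol matched 1 row, and all 3 passed the filter on low counts that left 20167 genes for testing. The study measured RNA from retinas of wild-type mice (WT, 3 libraries, WT 1 to WT 3) and of mice labelled as Kv8.2 knockouts (KO, 5 libraries, KO 2 to KO 6). All mice were 1 month old and untreated, and each library held 2 pooled retinas of a mouse. Kv8.2 is the product of Kcnv2, a potassium channel subunit of photoreceptors. The strain and the knockout allele are not given in the sources used here. The comparison of WT with KO asks which transcripts differ in retinas labelled as knockouts of this subunit.

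The pump moves sodium out of the cell and potassium in, at the cost of ATP. The alpha subunit does the transport, while the beta subunit is a glycoprotein with a single membrane span that the alpha subunit needs to fold, to reach the cell surface and to bind potassium normally. In the dark, sodium enters a photoreceptor through the channels of the outer segment, potassium leaves through the inner segment, where Kv2.1 and Kv8.2 channels lie, and the pump in the inner segment returns both ions. Atp1b2, first described as the adhesion molecule on glia, is the beta subunit of photoreceptors and Muller glia. Atp1b1 is the beta subunit of most epithelia and many neurons, and Atp1b3 is found in many tissues.

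The 3 genes lie on different chromosomes, and positions are those of the GENCODE M21 annotation on GRCm38, the build named in the submitters' processing notes. Atp1b1 (ENSMUSG00000026576) spans chr1:164437109-164458355, Atp1b2 (ENSMUSG00000041329) spans chr11:69599736-69605942 and Atp1b3 (ENSMUSG00000032412) spans chr9:96332655-96364442, all on the minus strand. Over aligned bases of the coding sequence, identity was 57.1% between Atp1b1 and Atp1b2, 55.2% between Atp1b2 and Atp1b3 and 49.6% between Atp1b1 and Atp1b3. The most alike stretch of 60 bases without gaps is shown because it is where reads of the 3 genes would be hardest to tell apart. It starts in exon 1 and ends in exon 2 of each gene, at bases 74 to 133 of the coding sequence in Atp1b1, 89 to 148 in Atp1b2 and 86 to 145 in Atp1b3. Capitals mark the 25 positions at which the genes are not all the same.
Atp1b1: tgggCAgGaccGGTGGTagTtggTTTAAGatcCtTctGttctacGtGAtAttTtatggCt
Atp1b2: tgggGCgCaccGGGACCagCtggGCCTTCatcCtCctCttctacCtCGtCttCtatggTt
Atp1b3: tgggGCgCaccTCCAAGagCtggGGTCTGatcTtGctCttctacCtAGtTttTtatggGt
Even here 35 positions were the same in all 3 genes, and no word of 31 bases of the coding sequences was shared between any pair of them. Of all 31-base words of their transcripts, 0% of those of Atp1b2 occurred in another gene. For Atp1b1 it was 16.9%, from the gene Nme7 that overlaps its exons on the other strand by 575 bases, and for Atp1b3 it was 16.2%, almost all from the processed pseudogene Gm1848. Nme7 was at 7.47 to 9.32 CPM in the 8 libraries, where CPM is the count per 1e+06 counts after TMM scaling (trimmed mean of M values), against 356 to 440 CPM for Atp1b1. Counts of Atp1b1 and Atp1b3 are uncertain to the extent that reads were divided between them and these genes. For Atp1b1 and Nme7 this depends on the use of strand in counting, which is not given. The level of Gm1848 is not given here.

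Libraries held 17759146 to 25188870 counts. The KO libraries did not form 1 set: KO 4, KO 5 and KO 6 scored 45.7 to 58.1 on the first principal component (39.5% of the variance), and the other 5 libraries scored -40.2 to -11.9. Mitochondrial genes took 3.03% to 3.70% of counts in KO 4 to KO 6, 5.23% and 6.52% in KO 3 and KO 2, and 7.09% to 7.92% in WT. No label names a batch. Since no WT library lies with KO 4 to KO 6, what sets them apart and the genotype cannot be told apart in their comparison with WT. KO 3 held 4.65% of its counts in 14 genes of a lens list, against at most 0.137% in any other library, and WT 3 was the single library with Y-linked Ddx3y (2132 counts against 1 to 3). The targeted gene was present in every library, so its level does not by itself check the labels: WT 1, WT 2 and WT 3 had 519, 551 and 526 CPM of Kcnv2, and those labelled KO 2 to KO 6 had 585, 447, 398, 409 and 409 CPM (log2 fold change -0.24, SE 0.14, edgeR adjusted p-value 0.275). It was called lower in KO 4 to KO 6 against WT (-0.38, edgeR adjusted p-value 0.000116), without KO 2 (-0.35, edgeR adjusted p-value 0.0298) and in limma voom (-0.36, adjusted p-value 0.00117), fits that called 42.8%, 13.9% and 40.9% of all genes, and was at -0.0434 in KO 2 and KO 3 against WT (edgeR adjusted p-value 0.903). Every direction below is therefore that of the libraries labelled KO. In WT the rod list had the highest sum of the marker lists, with 41500 to 45000 CPM over 8 rod genes. In KO 3 the lens list summed to 47700 CPM and the rod list to 37200 CPM.

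None of the 3 beta subunit genes passed the test over all 8 libraries, although 2 had an unadjusted p-value under 0.05. Atp1b2 was higher and Atp1b1 lower in every KO library than in every WT library, and Atp1b3 was split within the KO group. Among all 20167 tested genes, edgeR's quasi-likelihood test called 7.58% at a Benjamini-Hochberg adjusted p-value under 0.05, 956 higher (4.74%) and 573 lower (2.84%). With library size alone as the scaling the split was 566 higher and 787 lower. KO and WT libraries did not overlap for 20.9% of tested genes, with KO above WT for 10.8% and below for 10.1%, so the absence of overlap alone does not set Atp1b1 and Atp1b2 apart.

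Atp1b2 was the most abundant of the 3 genes. WT 1, WT 2 and WT 3 had 1079, 1125 and 952 CPM, and KO 2 to KO 6 had 1312, 1153, 1373, 1514 and 1366 CPM. Every KO library lay above every WT library, with KO 3 close to WT 2 and KO 5 the highest. WT averaged 1052 ± 89.7 CPM (SD, n = 3), and KO averaged 1344 ± 130.0 CPM (SD, n = 5). This is a log2 fold change of 0.35 (SE 0.12, 95% interval 0.098 to 0.61), with an edgeR adjusted p-value of 0.0821 (unadjusted 0.0113). The gene is thus not called in this fit, and the interval of the unadjusted difference lies above 0. It was called by DESeq2 (log2 fold change 0.36, adjusted p-value 0.00965) and by limma voom with library quality weights (0.41, adjusted p-value 0.000762), fits that called 18.2% and 40.9% of the genes they tested.

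The value for Atp1b2 was also taken in parts of the libraries, and the differences between these values were not tested. KO 4 to KO 6 against WT gave a log2 fold change of 0.44 (SE 0.07, edgeR adjusted p-value 0.000431), in a comparison that called 42.8% of tested genes. KO 2 and KO 3 against WT gave 0.23 (SE 0.15, edgeR adjusted p-value 0.440), where 0.891% of genes were called, 0.624% higher and 0.267% lower. The 2 comparisons share the WT libraries. Leaving out KO 3 gave 0.41 (edgeR adjusted p-value 0.0153), where 20.0% of genes were called, and leaving out WT 3 gave 0.29 (edgeR adjusted p-value 0.284), where 0.955% were called. Fold changes of all genes were related to GC content (Spearman's rho 0.459 over 18028 genes, which are not independent), and the GC content of Atp1b2, 52.4%, was above that of 66.7% of them. With an offset for GC content in each library its log2 fold change was 0.26 (SE 0.10, edgeR adjusted p-value 0.154), a fit that called 5.75% of genes, 3.53% higher and 2.22% lower. In KO 4 to KO 6 with that offset it was 0.30 (edgeR adjusted p-value 0.00552), where 32.2% of genes were called, 17.6% higher and 14.6% lower.

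In bulk retina a higher level per cell and a larger share of cells of a type cannot be told apart. Markers of 8 Muller glia genes summed to 4500 to 4710 CPM in WT and to 4850 to 6870 CPM in KO, and 3 of the 8 genes were higher in every KO library than in every WT library. None of the 8 was at 0 in a library. The rod list summed to 37200 to 54900 CPM in KO, so it overlapped WT, with 2 of 8 genes higher and 1 lower in every KO library. The cone list of 8 genes summed to 907 to 1120 CPM in WT and to 659 to 872 CPM in KO, with 1 gene higher and 3 lower in every KO library. For comparison, 10.8% of all tested genes were above and 10.1% below WT in this way. Lists of other cell types lay higher in every KO library as sums: 3 astrocyte genes went from 42.7 to 46.2 CPM in WT to 85.6 to 107 CPM in KO, 4 endothelial genes from 136 to 143 CPM to 186 to 282 CPM, and 6 microglia genes from 22.9 to 25.8 CPM to 28.6 to 40.8 CPM. The sums of the bipolar (1250 to 1350 CPM in WT, 1180 to 1400 CPM in KO), amacrine and horizontal (924 to 968, 890 to 1080), ganglion (1010 to 1120, 1000 to 1460) and pigment epithelium lists (66.2 to 75.3, 56.5 to 84.5) overlapped between WT and KO. None of the astrocyte, endothelial and microglia genes was at 0 in a library, and of them 1 astrocyte, 1 endothelial and 2 microglia genes were themselves above WT in every KO library. The part of these lists in the levels of Atp1b2 and Atp1b1 was not tested.

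Atp1b1 differed in the other direction and by less. WT 1, WT 2 and WT 3 had 416, 440 and 429 CPM, and KO 2 to KO 6 had 359, 394, 362, 356 and 361 CPM. All KO libraries were below all WT libraries, and 4 of the 5 lay within 356 to 362 CPM, with KO 3 nearest to WT. WT averaged 429 ± 12.2 CPM (SD, n = 3), and KO averaged 367 ± 15.6 CPM (SD, n = 5). This is a log2 fold change of -0.23 (SE 0.09, 95% interval -0.42 to -0.028), with an edgeR adjusted p-value of 0.135 (unadjusted 0.0290). DESeq2 called it at -0.22 (adjusted p-value 0.0279) and limma voom at -0.24 (adjusted p-value 0.00308), again in fits that called 18.2% and 40.9% of genes.

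The Atp1b1 difference varied little with the libraries used. It was -0.19 (SE 0.12, edgeR adjusted p-value 0.424) for KO 2 and KO 3 against WT and -0.24 (SE 0.05, edgeR adjusted p-value 0.00237) for KO 4 to KO 6 against WT, where 42.8% of all genes were called. Its GC content, 49.5%, was near the median of tested genes, 49.1%, and the log2 fold change with the GC offset was -0.24 (edgeR adjusted p-value 0.128). Leaving out KO 3 brought the edgeR adjusted p-value to 0.0335, with a log2 fold change of -0.25, in a fit that called 20.0% of genes. The overlapping gene Nme7 had a log2 fold change of -0.09 (SE 0.12, edgeR adjusted p-value 0.671).

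Atp1b3, the least abundant of the 3, differed more among KO libraries than between the groups. WT 1, WT 2 and WT 3 had 111, 114 and 104 CPM, and KO 2 to KO 6 had 115, 166, 79.6, 89.5 and 70.7 CPM. KO 2 and KO 3 lay above all WT libraries, KO 2 by less than 1 CPM, and KO 4, KO 5 and KO 6 lay below them all. WT averaged 109.6 ± 5.23 CPM (SD, n = 3) and KO averaged 104 ± 38.4 CPM (SD, n = 5), so the groups had close means and unequal spreads. The fold change on the log2 scale was -0.07 (SE 0.24, 95% interval -0.60 to 0.45), with an edgeR adjusted p-value of 0.873. That interval includes changes in either direction larger than those of Atp1b1 and Atp1b2, so it does not show that Atp1b3 was alike in WT and KO.

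Taken separately, the KO libraries gave opposite signs for Atp1b3. KO 4 to KO 6 against WT gave a log2 fold change of -0.45 (SE 0.08, edgeR adjusted p-value 0.000867), and -0.41 with the GC offset (edgeR adjusted p-value 0.00161), where 20.5% and 14.6% of all genes were called lower. KO 2 and KO 3 against WT gave 0.36 (SE 0.15), which was not called (edgeR adjusted p-value 0.241). The difference between the 2 sets of KO libraries was not tested, because the sets were formed from the data. KO 3, the highest library for Atp1b3, was also the library with lens transcripts. The 14 lens genes summed to 47700 CPM in KO 3, to 4.37 to 195 CPM in the other KO libraries and to 24.9 to 1380 CPM in WT. Cryaa, Cryba2, Crybb2, Lim2, Lenep and Gja3 were at 0 in some libraries. KO 4, KO 5 and KO 6 had the lowest lens sums (13.2, 6.29 and 4.37 CPM). A lens covariate can therefore also take up the split among the KO libraries, and it does not isolate lens tissue. With the mean lens level as a covariate, the log2 fold change of Atp1b3 was -0.02 (SE 0.11, edgeR adjusted p-value 0.923), and without KO 3 it was -0.30 (SE 0.14, edgeR adjusted p-value 0.171). limma voom, which gives libraries unequal weights, called the gene lower, with a log2 fold change of -0.38 and an adjusted p-value of 0.0282, in a fit that called 20.6% of genes lower.

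**Figure D1:**
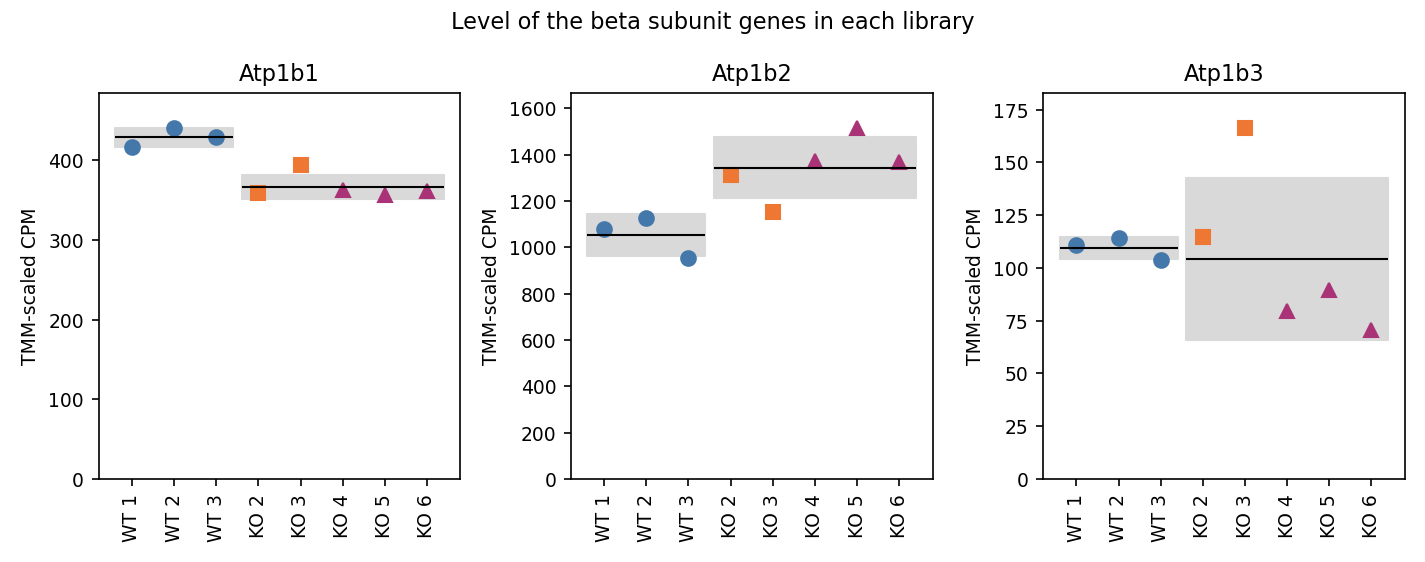
Level of Atp1b1, Atp1b2 and Atp1b3 in each library, in TMM-scaled CPM on axes from 0 (circles: WT, squares: KO 2 and KO 3, triangles: KO 4 to KO 6; line and grey band: mean ± SD of the group). Atp1b1 is lower and Atp1b2 higher in all KO libraries, while for Atp1b3 KO 2 and KO 3 have 115 and 166 CPM, against 70.7 to 89.5 CPM for KO 4 to KO 6.

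**Figure D2:**
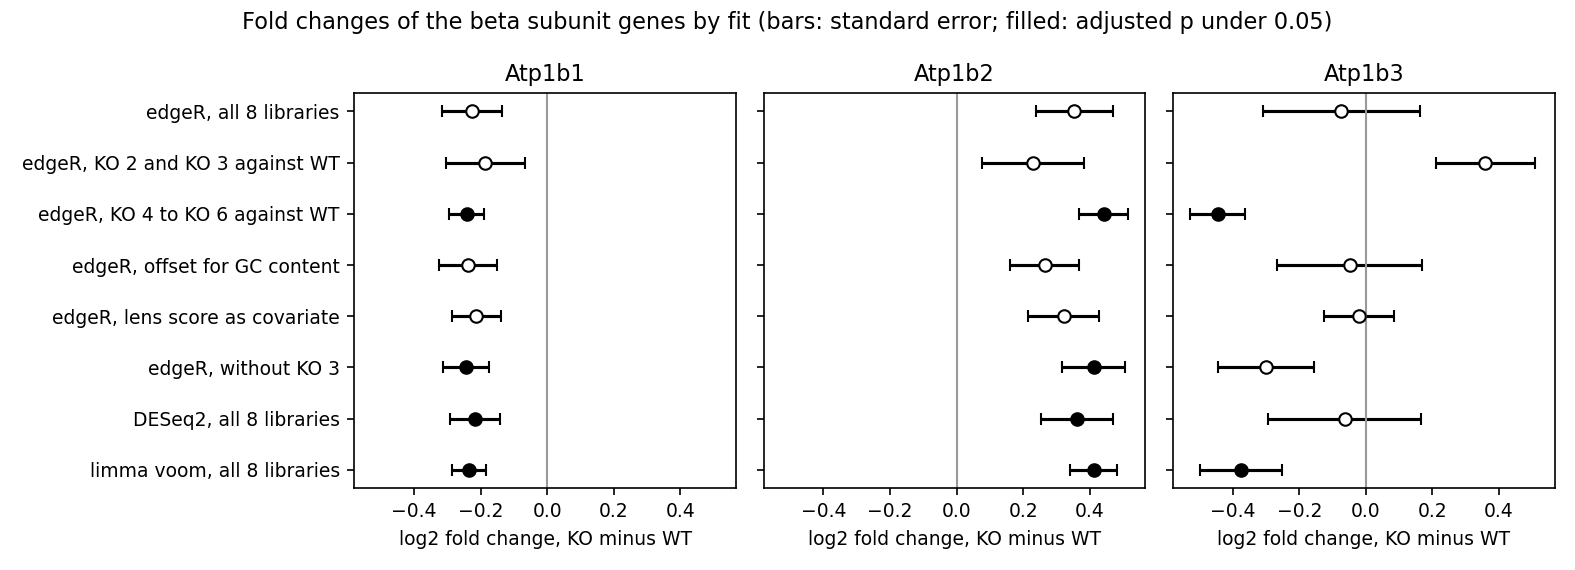
Log2 fold change of each gene, KO minus WT, with its standard error in 8 fits, where filled points have an adjusted p-value under 0.05. The sign is the same in all 8 fits for Atp1b1 and Atp1b2 and changes for Atp1b3, from 0.36 in KO 2 and KO 3 to -0.45 in KO 4 to KO 6.

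Ratios between 2 beta subunit genes within a library do not depend on the scaling between libraries. The log2 ratio of Atp1b2 to Atp1b1 counts was 1.37, 1.35 and 1.15 in WT 1 to WT 3, and 1.87, 1.55, 1.92, 2.09 and 1.92 in KO 2 to KO 6. It was higher in all KO libraries than in all WT libraries. The mean was 1.29 ± 0.13 in WT (SD, n = 3) and 1.87 ± 0.20 in KO (SD, n = 5), which is 2.45 counts of Atp1b2 for each count of Atp1b1 in WT and 3.65 in KO. The difference of 0.58 gave p = 0.0357 in an exact permutation test (two-sided), the smallest value that 3 against 5 libraries allow, and an adjusted p-value of 0.107 over the 3 ratios, so it did not pass the threshold. Since Atp1b2 was above and Atp1b1 below WT in every KO library, the ratio had to separate the groups and the p-value had to be the smallest possible, so this test adds nothing to the values of the single genes. The difference was 0.42 for KO 2 and KO 3 against WT, 0.69 for KO 4 to KO 6 against WT and 0.50 with the GC offset.

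The ratios with Atp1b3 overlapped between the groups. The log2 ratio of Atp1b3 to Atp1b1 was -2.05 to -1.91 in WT. It was -1.65 and -1.24 in KO 2 and KO 3, above WT, and -2.35 to -1.99 in KO 4 to KO 6. The difference was 0.08, with an exact permutation p-value of 0.857. The log2 ratio of Atp1b2 to Atp1b3 was 3.20 to 3.30 in WT, 3.52 in KO 2, 2.79 in KO 3 and 4.08 to 4.27 in KO 4 to KO 6. The difference was 0.49, with an exact permutation p-value of 0.250. KO 3 was the single KO library below WT in this ratio.

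**Figure D3:**
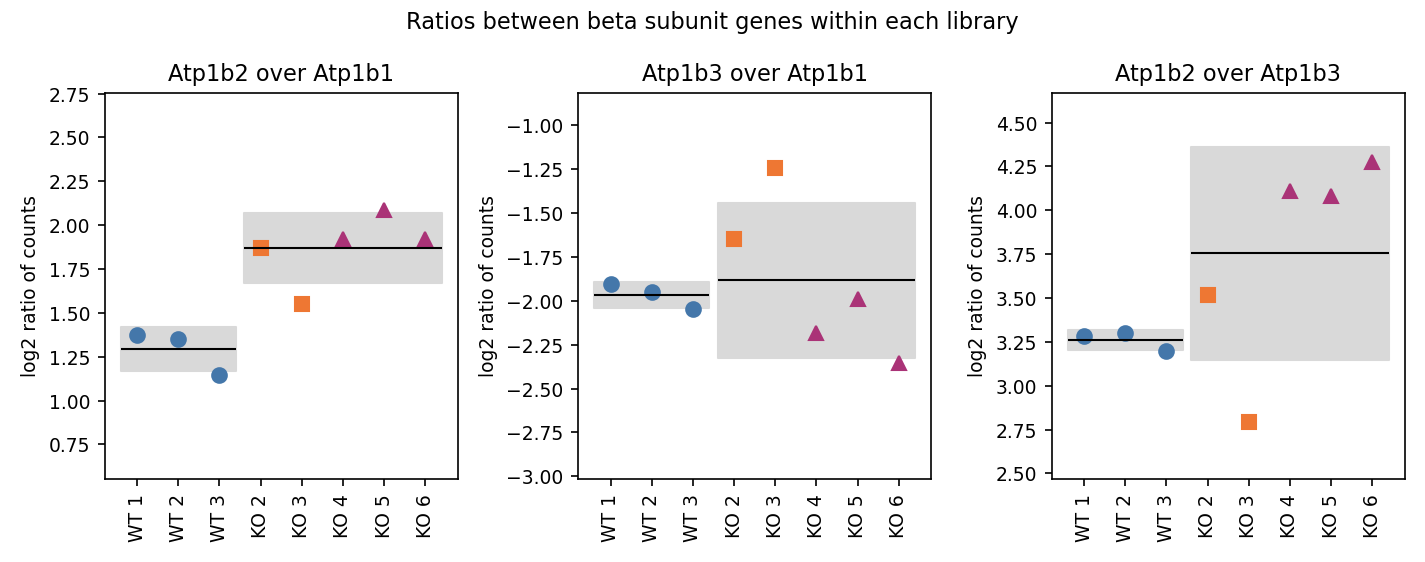
Log2 ratio of the counts of 2 beta subunit genes in each library (circles: WT, squares: KO 2 and KO 3, triangles: KO 4 to KO 6; line and grey band: mean ± SD of the group; each axis spans the same range of log2 units). Atp1b2 over Atp1b1 is 1.15 to 1.37 in WT and 1.55 to 2.09 in KO, and the other ratios overlap.

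Compared per length, the order of the levels was the same in all 8 libraries, Atp1b2 above Atp1b1 above Atp1b3. Per kilobase of the longest annotated transcript (3751, 2580 and 1994 bases), Atp1b2 was at 254 to 404, Atp1b1 at 138 to 171 and Atp1b3 at 35.4 to 83.4 CPM per kb over the 8 libraries, and these ranges do not overlap. Of the summed level of the 3 genes, Atp1b2 made up 55.9% ± 1.84 in WT (SD, n = 3) and 64.8% ± 4.92 in KO (SD, n = 5). Atp1b1 made up 33.2% ± 1.80 in WT and 25.7% ± 1.62 in KO, and Atp1b3 10.97% ± 0.11 in WT and 9.48% ± 3.60 in KO. The share of Atp1b2 was 56.6% in KO 3, within the WT range of 53.7% to 57.0%, and 64.0% to 68.8% in the other KO libraries. The sum of the 3 levels was 472 to 528 CPM per kb in WT and 540 to 587 CPM per kb in KO. The longest Atp1b2 transcript is annotated as non-coding, and with the longest protein-coding transcript (2842 bases) the order held and the share of Atp1b2 over all libraries was 67.7% in place of 61.4%.

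The genes whose levels over the 8 libraries were most like each member were taken by Pearson's r, as a description, from the 6312 genes whose log2 CPM averaged 5 or more. For Atp1b1 they were Fam120aos (r = 0.991), Csgalnact2 (0.990), a chondroitin sulfate enzyme, and Zranb2 (0.983), a splicing factor, with log2 fold changes of -0.77, -0.39 and -0.59, a direction that follows from their being chosen for likeness to Atp1b1. For Atp1b2 they were Sec23b (0.993), a coat protein of vesicles leaving the endoplasmic reticulum, G6pdx (0.987), the first enzyme of the pentose phosphate pathway, and Spats2 (0.983). None of these 3 was called (edgeR adjusted p-values 0.0649 to 0.112). The 3 genes most like Atp1b1 were all called (edgeR adjusted p-values 0.01018 to 0.03145), in a fit that called 7.58% of all genes. For Atp1b3 they were Pde8a (0.978), a cyclic AMP phosphodiesterase, Cald1 (0.970), an actin-binding protein, and Dctn2 (0.969), a dynactin subunit, with log2 fold changes of -0.05 to -0.03. All points share the same 8 libraries, in which KO 4 to KO 6 stand apart, and by Spearman's rho 0 of the 3 genes were the same for any member. By deviations from the group means 1 of the 3 was the same for Atp1b1, 1 for Atp1b2 and 0 for Atp1b3.

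The FXYD proteins tune the pump, and the Nkain proteins bind its beta subunit. Of these 11 genes 10 were tested and edgeR called 0 over all libraries, where 7.58% of all genes were called. Their median log2 fold change was 0.02 against 0.0007 over all tested genes. Of the 10 tested genes 1 was below WT in every KO library and 0 above, against 10.1% and 10.8% of all tested genes. This gene was Fxyd7, the FXYD protein of brain, averaging 6.56 ± 0.432 CPM (SD, n = 3) against 4.98 ± 0.754 CPM (SD, n = 5). Its difference on the log2 scale was -0.40 (edgeR adjusted p-value 0.151), and with the GC offset it was called at -0.62 (edgeR adjusted p-value 0.0339), where 2.22% of genes were called lower. In KO 4 to KO 6 against WT it was not called (-0.27, edgeR adjusted p-value 0.142).

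Fxyd6 was the most abundant FXYD gene by CPM, with means of 65.3 ± 3.07 CPM for WT and 70.4 ± 10.2 CPM for KO (SD, 3 and 5 libraries), and a log2 fold change of 0.11. Fxyd1, known as phospholemman, was at 18.6 ± 5.05 and 24.4 ± 3.89 CPM (log2 fold change 0.39, edgeR adjusted p-value 0.217). Both were called higher in KO 4 to KO 6 against WT, at 0.25 and 0.47 (edgeR adjusted p-values 0.00673 and 0.0300). In that comparison 22.3% of all genes were called higher, so these calls do not set the 2 genes apart. Nkain1 and Nkain3 were at 2.98 and 3.46 CPM in WT and had log2 fold changes of 0.31 and -0.18. Fxyd2, Fxyd3, Fxyd5, Nkain2 and Nkain4 were at 0.547 to 1.68 CPM in WT, and Fxyd4 did not pass the filter.

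Carriers that are driven by the sodium gradient, or move ions beside it, were called higher more often than lower. So were all tested genes in this fit, with 956 higher (4.74%) and 573 lower (2.84%). Of 37 tested carriers 6 were called higher and 0 lower, and the median log2 fold change was 0.23 against 0.0007 over all genes. The glutamate carriers Slc1a1 and Slc1a2 rose, Slc1a1 from 40.3 ± 1.18 CPM in WT to 53.0 ± 0.924 CPM in KO and Slc1a2 from 247 ± 1.18 CPM to 380.4 ± 49.3 CPM (SD, 3 and 5 libraries), with log2 fold changes of 0.40 and 0.63 (edgeR adjusted p-values 0.0132 and 0.0210). The neutral amino acid carriers Slc1a4 (0.76) and Slc38a2 (0.43), the GABA carrier Slc6a11 (0.56) and the sodium, calcium and potassium exchanger Slc24a4 (0.67) rose as well, with edgeR adjusted p-values of 0.0216 to 0.0497. The GABA carrier Slc6a11 was not called with the GC offset (0.43, edgeR adjusted p-value 0.0750). Slc24a1, the exchanger that removes calcium from the rod outer segment, had a log2 fold change of -0.01 (SE 0.17). Of 7 tested calcium pumps, which belong to the same family of ATPases as the sodium pump, Atp2b2 (0.58) and Atp2b3 (0.50) were called higher (edgeR adjusted p-values 0.0391 and 0.0443), where 4.74% of all genes were. With the GC offset Atp2b3 lost the call (0.38, edgeR adjusted p-value 0.0966) and Atp2b1 gained one (0.46, edgeR adjusted p-value 0.0482). With library size alone as the scaling, a fit that called 6.71% of genes, 4 of these 6 carriers and 0 of these 2 calcium pumps were called: Slc6a11, Slc38a2, Atp2b2 and Atp2b3 had edgeR adjusted p-values of 0.0595 to 0.0702, with log2 fold changes of 0.53, 0.40, 0.55 and 0.47. Slc38a2 was also not called with DESeq2's size factors (edgeR adjusted p-value 0.0502) or over the genes with a GC value and no offset (edgeR adjusted p-value 0.0538), and Slc6a11, Slc38a2 and Atp2b3 were not called with no filter on low counts (edgeR adjusted p-values 0.0506, 0.0601 and 0.0521). The Muller glia and astrocyte lists were higher in the same KO libraries, and their part in the levels of the carriers was not tested.

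The carrier calls were lost or kept as the number of all calls fell or rose. Of the 6 carriers called, edgeR called 0 without WT 1 or without WT 2, 1 without WT 3 (Slc24a4), 1 without KO 4 or without KO 5 (Slc1a1), 3 without KO 6 (Slc1a1, Slc1a2 and Slc24a4), and all 6 without KO 2 or without KO 3. These fits called 0.636%, 0.646%, 0.955%, 1.84%, 1.94%, 2.68%, 13.9% and 20.0% of all genes (without WT 1, WT 2, WT 3, KO 4, KO 5, KO 6, KO 2 and KO 3). Atp2b2 and Atp2b3 were both called without KO 2 or KO 3, and 0 of these 2 calcium pumps were called without any other library. Every one of these fold changes stayed above 0 when a library was left out. In KO 2 and KO 3 against WT, edgeR called 0 of the 10 FXYD and Nkain genes, 0 of the 37 carriers and 0 of the 7 calcium pumps, where 0.891% of all genes were called. In KO 4 to KO 6 against WT it called 2 FXYD genes higher and 0 FXYD or Nkain genes lower, 21 carriers higher and 7 lower, and 5 calcium pumps higher and 1 lower, where 22.3% of all genes were called higher and 20.5% lower.

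**Figure D4:**
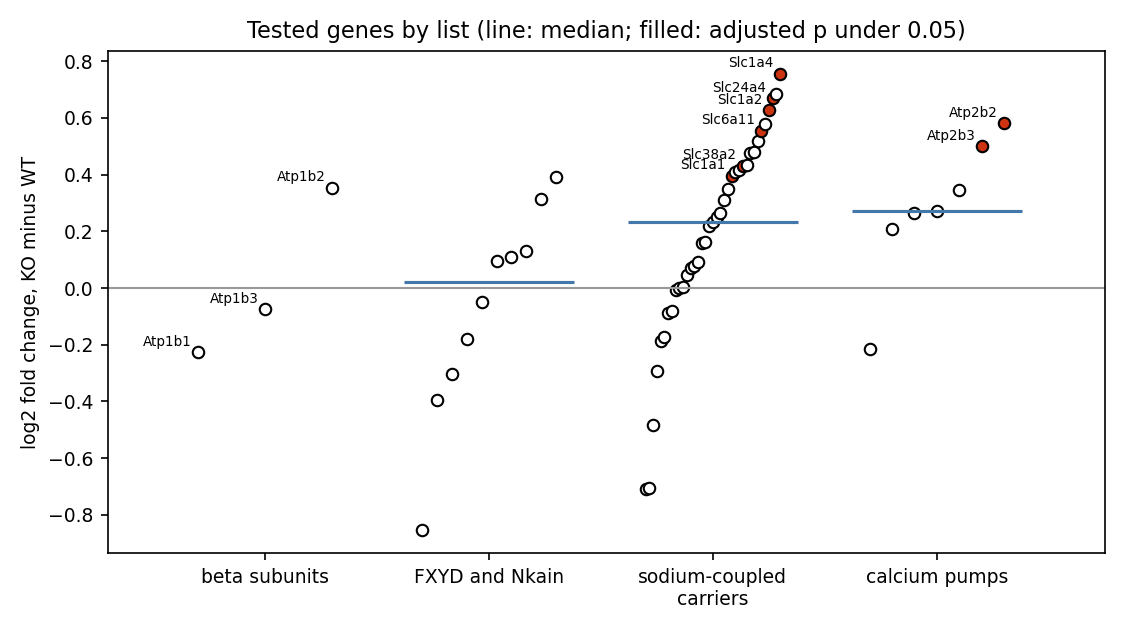
Log2 fold change, KO minus WT, of each tested gene (points, ordered within a list) for the 3 beta subunits, 10 FXYD and Nkain genes, 37 sodium-coupled carriers and 7 calcium pumps, where filled points have an edgeR adjusted p-value under 0.05 and lines are list medians. Filled points occur among the carriers (6) and calcium pumps (2), and none among the FXYD and Nkain genes or the beta subunits, which are at -0.23 (Atp1b1), -0.07 (Atp1b3) and 0.35 (Atp1b2).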

How the data were processed

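The authors deposited a table of read counts per Ensembl gene for 8 libraries, with whole numbers that differ in total between libraries. The submitters' processing notes name Trim Galore, Salmon 1.10.2, DESeq2 and GRCm38 without roles, so the counts may be rounded estimates, and how strand was used is not given in the sources used here. Each gene has at least 16 counts in total. GENCODE M21 gave positions, lengths, GC content and shared 31-base words.

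Counts were scaled by TMM in edgeR 4.0.16 (R 4.3.3), filtered with filterByExpr and compared with the quasi-likelihood test over all 8 libraries without covariates. P-values were adjusted by Benjamini-Hochberg over 20167 genes, with a threshold of 0.05. Standard errors came from the fold change and F statistic. Log2 CPM used a prior count of 2, and ratios added 0.5 to each count. Ratios were compared by exact permutation (as in scipy 1.17.1). DESeq2 1.42.0 and limma 3.58.1 were alternatives. Coding sequences were aligned with MAFFT 7.526. The edgeR steps were tested on simulated data with 200 genes changed 2-fold. At the dispersion of all 8 libraries 116 of them were recovered (58%), with 6 false calls. At the dispersion of the WT libraries 191 were recovered (95.5%), with 10 false calls. Changes as small as those of the members were not simulated.

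The series text says that 2 KO samples were left out by the authors and does not name them, so all were kept. Labels do not say that mice came from separate litters or cultures, and p-values measure the spread between these libraries. No pair of libraries of a group agreed within sampling noise (chi-square per degree of freedom 5.73 or more). Counting error was 0.575% to 2.54% of a member's count (Poisson, reads only). Members and lists were chosen with earlier results of these data known. Named genes are Kcnv2, the members, the 3 genes most like each, called genes of the lists, and pump partners whose log2 CPM averaged 1 or more. The FXYD and Nkain genes are part of a longer list of partners, and its other genes, some of which were called, are not reported here, so counts for the FXYD and Nkain genes do not describe that whole list. Other genes named were chosen after their values were seen.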

Additional observations from a re-analysis of the deposited data

Results flagged for a closer look

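Single libraries that lay apart were looked for in 8 values of the 5 KO libraries, by the gap to the nearest library as a share of the whole range, with a limit of 0.71. Chance passes the limit in about 1 of 20 such groups. Atp1b1 was higher in KO 3 than in the other KO libraries, with a gap of 0.827 of the range of log2 CPM (394 CPM against 356 to 362 CPM). The lens share of counts was highest in KO 3 as well, with a gap of 0.996 of the range (4.65% against at most 0.0178%). The log2 fold change of Atp1b1 was -0.22 with lens genes left out of the table and -0.21 with the lens score as a covariate. The part of lens transcripts in the level of Atp1b1 was not tested.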

How the results depend on the processing

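The number of genes called, 1529 over all 8 libraries, was 3066 with DESeq2, 8248 with limma voom, 2736 with the lens covariate, and 132 to 3992 without 1 library. It was 180 for KO 2 and KO 3 and 8416 for KO 4 to KO 6 against WT (175 and 5693 with the GC offset), and 118 to 8416 over the 10 fits of 3 KO against 3 WT libraries. Atp1b1 and Atp1b2 kept their signs in every fit run. Their log2 fold changes in fits that called them were -0.22 and 0.36 (DESeq2), -0.24 and 0.41 (limma voom), -0.24 and 0.44 (KO 4 to KO 6, the latter also the highest of the 10 fits) and -0.27 and 0.30 (KO 4 to KO 6 with the GC offset). Of the 10 fits, 3 called Atp1b2 (0.44, 0.41 and 0.41) and 1 called Atp1b1. All 3 left out KO 3, together with KO 2, KO 4 or KO 6. They called 8416 of 19678, 2540 of 19567 and 2593 of 19458 tested genes. The fit without KO 2 and KO 3 was the 1 that called Atp1b1. Without 1 library the log2 fold changes of Atp1b1 and Atp1b2 were -0.25 to -0.20 and 0.29 to 0.41, called in each case only without KO 3. Atp1b3 was -0.30 to 0.0386 without 1 library. It was -0.38 in limma voom, -0.45 in KO 4 to KO 6, which is the lowest of the 10 fits, and -0.41 there with the GC offset. It changed sign to 0.36 in KO 2 and KO 3 (0.37 with the GC offset), and to 0.17 in the highest of the 10 fits. The cause was not tested.

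Without 1 library, the difference in log2 ratio was 0.51 to 0.66 for Atp1b2 over Atp1b1, -0.0764 to 0.20 for Atp1b3 over Atp1b1 and 0.37 to 0.73 for Atp1b2 over Atp1b3. Atp1b3 over Atp1b1 changed sign to -0.21 in KO 4 to KO 6, and Atp1b2 over Atp1b3 to -0.10 in KO 2 and KO 3. With the longest coding transcript, Atp1b2 made up 67.7% and Atp1b1 23.9% of the summed level. Replicate numbers 2 and 3 occur in both groups and are only names in the labels. Deviations of same-numbered libraries had a correlation of -0.19. Fits with a replicate block used only WT 2, WT 3, KO 2 and KO 3. In these libraries 52 genes were called with the replicate block, 14 with no replicate block and 527 with the pairing crossed. Atp1b3 in these libraries was at 0.34 with the block and 0.37 without it. With the replicate block, Atp1b2 over Atp1b3 was at -0.0933. The GC offset within KO 2 and KO 3 and within KO 4 to KO 6, the crossed pairing and the longest coding transcript were alternatives chosen after seeing the data.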
